A study of Rattus norvegicus with 17 samples.

Results

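A set of 10 genes for ubiquitin ligases linked to muscle wasting, Fbxo32, Trim63, Fbxo30, Fbxo31, Fbxo21, Fbxo40, Asb2, Cblb, Traf6 and Mul1, was read out in rat gastrocnemius, a hindlimb muscle. They were taken by gene name from the deposited count table, where each of the 10 stood on 1 of 32495 named entries, and all 10 passed the filter on low counts. The groups were healthy rats on a control diet (5 samples), tumor-bearing rats without chemotherapy on that diet (5 samples) and tumor-bearing rats given chemotherapy on that diet (6 samples). The labels give no strain, sex, age, tumor type, drug, dose or time, and nothing in them says whether a sample pools animals, so p-values measure the spread between these samples. Samples are called by their library number: 1 to 5 are healthy, 6 to 10 tumor, and 11 and 13 to 17 chemotherapy, where 11 is the sum of libraries 11 and 12.

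A ubiquitin ligase picks the protein that is to be tagged with ubiquitin and brings it to the enzyme that carries the ubiquitin. Tagging with chains of ubiquitin can send a protein to the proteasome, the main route by which contractile proteins are broken down in wasting muscle. The ligases described here are of several kinds. The F-box proteins Fbxo32, Fbxo30, Fbxo31, Fbxo21 and Fbxo40 are the substrate-binding parts of complexes built on the scaffold Cul1, and Asb2 does the same job on the scaffold Cul5. Trim63, Cblb, Traf6 and Mul1 carry a RING domain and bind the ubiquitin-carrying enzyme themselves. Fbxo32 (atrogin-1) and Trim63 (MuRF1) are the usual transcript markers of muscle atrophy, and FoxO factors and the glucocorticoid receptor are known to switch them on.

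The letters upstream of 2 of these genes are shown because Trim63 is the textbook target of both regulators and Fbxo31 was the only ligase gene that passed the edgeR test in any comparison. They come from the RefSeq promoter table for the build GRCr8, which holds 8 of the 10 genes, and only bases outside the annotated gene are printed, 5′ to 3′ on the strand of the gene. The first lies at chr5:151816986-151817208 on the plus strand and the second at chr19:66564675-66564924 on the minus strand. Capitals mark the FoxO motif (GTAAACA), the half-site of the glucocorticoid receptor (AGAACA), the E-box (CAGCTG), the CCAAT box and the TATA box (TATAAA), each on either strand.
Trim63: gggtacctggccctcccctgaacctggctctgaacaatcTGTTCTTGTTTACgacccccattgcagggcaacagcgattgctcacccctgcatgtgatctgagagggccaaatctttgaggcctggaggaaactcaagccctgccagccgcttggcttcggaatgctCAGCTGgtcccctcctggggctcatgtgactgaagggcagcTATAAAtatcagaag
Fbxo31: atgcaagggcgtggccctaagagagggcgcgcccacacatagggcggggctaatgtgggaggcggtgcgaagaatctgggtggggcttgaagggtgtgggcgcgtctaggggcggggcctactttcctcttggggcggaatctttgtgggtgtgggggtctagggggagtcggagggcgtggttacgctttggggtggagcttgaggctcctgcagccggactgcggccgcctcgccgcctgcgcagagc

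Upstream of Trim63 the letters of the half-site and of the FoxO motif stood next to each other, both on the other strand, beginning 211 and 205 bases before the transcript start. The FoxO letters were in 3.21% of all 33469 upstream windows of 250 bases, and the half-site letters in 17.5%. Trim63 was the only one of the 8 ligase genes with either of them in its window. Fbxo32 and Traf6 had no window in the promoter table and were not scanned. It also held TATAAA (12.9% of all windows) and the E-box (12%), which Asb2 held too. Fbxo30 and Cblb held CCAAT (34.0% of windows), and Fbxo40 a match to the MEF2 motif (2.96%). Of the 250 bases, 0 lay outside the annotated gene for Fbxo40, 47 for Fbxo30, 67 for Asb2 and 124 for Cblb. Fbxo31, Fbxo21 and Mul1 held none of these motifs. A match is only a run of letters, and its absence says nothing about what binds there. The window upstream of Fbxo31 was rich in G and C, at 67.2% against a median of 51.2% over all windows. This was not particular to Fbxo31, as Fbxo30 (75.6%) and Cblb (68.8%) were richer. Fbxo21 was at 61.2%, Trim63 at 56.8%, Mul1 at 55.2%, Asb2 at 54.4% and Fbxo40 at 48%.

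Library totals ran from 3023899 to 15777909 counts, and the ligase genes with the fewest counts in a sample were Fbxo21 (25 to 260) and Traf6 (26 to 142). Levels are given as CPM, a count relative to 1000000 counts of its library, scaled between samples by TMM factors, and CPM values are not compared between genes because gene length was not available. Healthy libraries 1, 3 and 4 had the lowest values on the first axis of a principal component analysis (1000 genes of highest variance), at -27.7, -33.0 and -42.0. All others ran from -19.8, in tumor library 8, to 28.1, so no wide gap set these libraries apart. Fits without healthy libraries 1, 3 and 4 keep only healthy libraries 2 and 5. Such fits lack the low end of that axis, so differences from healthy along it were set to shrink there. The alignment names in the table's header end in MB for healthy libraries 1 to 4 and chemotherapy library 11, and in VM for all others. What the suffix stands for is not given, and it can hardly be told apart from the contrast with healthy rats. As to tissue, 6 of 7 myofiber markers, among them Acta1 and Ckm, were in the table, and they summed to between 89874 and 188396 CPM. The 4 heart markers summed to 33.8 to 125 CPM in healthy, 77.6 to 157 in tumor and 63.9 to 101 in chemotherapy samples. Of these markers only Nppa was at 0 in every sample.

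Neither of the 2 classical atrophy markers passed the test in any comparison, and Trim63 was measured far more evenly than Fbxo32. Fbxo32, the F-box ligase that targets MyoD and eIF3f among others, read 290, 262, 209, 72.1 and 283 CPM in healthy libraries 1 to 5. In tumor libraries 6 to 10 it read 252, 340, 170, 166 and 157 CPM. With chemotherapy it ran from 209 to 454 CPM with a median of 249. The groups overlapped throughout, with healthy library 4 far below every other sample and chemotherapy library 15 the highest. Fold changes are written as the first group over the second. The log2 fold change was -0.04 ± 0.31 (SE, 95% interval -0.71 to 0.64) for tumor over healthy, 0.32 ± 0.30 (-0.33 to 0.97) for chemotherapy over healthy and 0.36 ± 0.30 (-0.29 to 1.01) for chemotherapy over tumor. The edgeR adjusted p was 0.960, 0.454 and 0.799. All 6 chemotherapy samples were above the tumor median, and 2 tumor samples were above the chemotherapy median. Without healthy library 4, chemotherapy over healthy came to 0.08 (adjusted p = 0.848).

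Trim63, the RING ligase bound to the sarcomere that tags myosin heavy chain and other thick-filament proteins, was even across the study. It read 201, 237, 218, 184 and 226 CPM in the healthy libraries and 237, 217, 191, 245 and 212 in the tumor libraries. With chemotherapy it ran from 199 to 251 CPM with a median of 220. Every sample of the study therefore lay between 184 and 251 CPM. The log2 fold change was 0.05 ± 0.12 (95% interval -0.21 to 0.31) for tumor over healthy, 0.07 ± 0.11 (-0.18 to 0.31) for chemotherapy over healthy and 0.02 ± 0.11 (-0.23 to 0.27) for chemotherapy over tumor, with edgeR adjusted p of 0.848, 0.697 and 0.972. Its coefficient of variation within a group was 9.27% to 9.84%, against 33.2% to 40.4% for Fbxo32, so the 2 markers were known with unequal precision.

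**Figure D1:**
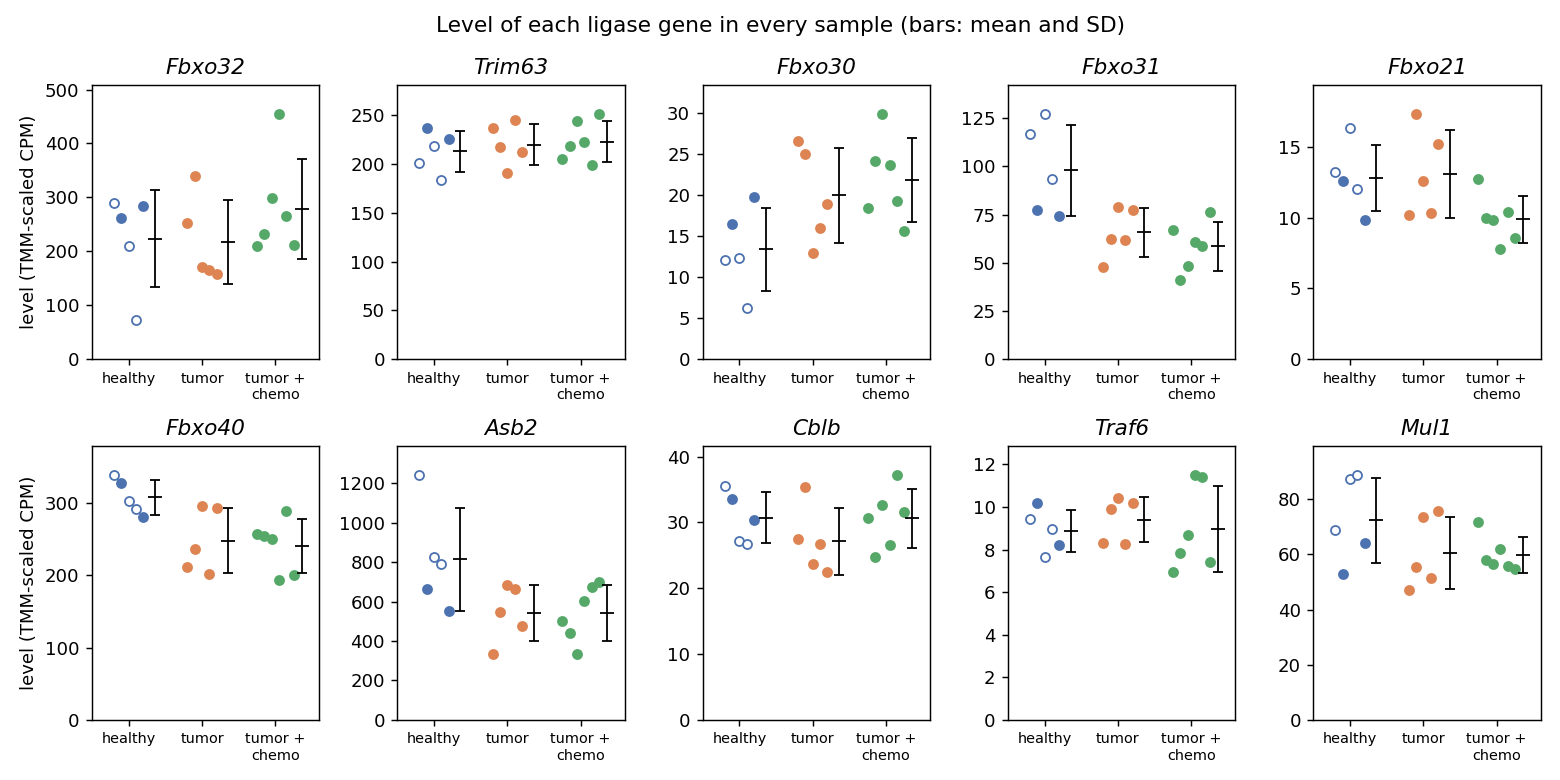
Level of each ligase gene in every sample, in CPM scaled by TMM factors (vertical axes start at 0), with the mean and SD of each group as black bars and healthy libraries 1, 3 and 4 as open circles. Trim63 stays between 184 and 251 CPM, Fbxo32 of healthy library 4 lies at 72.1, and for Fbxo31 the open circles are the 3 highest values.

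The ratio of Fbxo32 to Trim63 within a sample does not depend on how libraries are scaled. On the log2 scale, healthy samples averaged -0.08 ± 0.74 (SD, n = 5), tumor samples -0.09 ± 0.48 (n = 5) and samples with chemotherapy 0.27 ± 0.44 (n = 6). It ran from -1.35 in healthy library 4 to 1.03 in chemotherapy library 15. A two-sided exact permutation test gave p = 0.409 for chemotherapy over healthy and 0.240 for chemotherapy over tumor, both 0.614 when adjusted over the 3 comparisons, and p = 1 for tumor over healthy. The smallest p these group sizes allow is 0.00794 for 5 against 5 and 0.00216 for 6 against 5.

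Fbxo31 was the only ligase gene called by edgeR with all 16 samples in any comparison: it fell in chemotherapy-treated rats against healthy rats. DESeq2 called it there too, together with Fbxo30 and Fbxo40. Fbxo31 is an F-box protein known for directing cyclin D1 and other cell cycle proteins to degradation. It read 117, 77.4, 127, 93.5 and 74.3 CPM in healthy libraries 1 to 5, and 47.7, 62.4, 79.1, 61.9 and 77.3 CPM in tumor libraries 6 to 10. With chemotherapy it ran from 40.8 to 76.1 CPM with a median of 59.8. Healthy libraries 1, 3 and 4 were the highest of the study, and the ranges of healthy and chemotherapy samples met only at their ends, at 74.3 and 76.1 CPM. The log2 fold change was -0.74 ± 0.18 (edgeR adjusted p = 0.0279), or 59.9% of the healthy level, and all 6 samples lay below the healthy median. Against healthy rats the tumor group was at -0.58 ± 0.19 (unadjusted p = 0.00653, adjusted p = 0.221), with all 5 samples below the healthy median. Chemotherapy over tumor was at -0.16 ± 0.18 (adjusted p = 0.834).

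The call of Fbxo31 was lost under several settings. Healthy libraries 1, 3 and 4 held the highest Fbxo31 values of the study, so leaving them out was set to shrink the difference. Without healthy libraries 1, 3 and 4 the log2 fold change was -0.37 (edgeR adjusted p = 0.899), with the suffix as a term -0.51 (0.588) and with 1 surrogate variable (a covariate estimated from the data) -0.31 (0.831). In VM libraries, 1 healthy sample at 74.3 CPM faced 5 chemotherapy samples from 40.8 to 76.1, and among MB libraries 4 healthy samples from 77.4 to 127 faced 1 chemotherapy sample at 66.7. The fit of VM libraries alone, in which the lone healthy sample is assumed to vary like the others, gave -0.38 (adjusted p = 0.683). Leaving out healthy library 1, 3 or 4 or chemotherapy library 13, 14 or 15 ended the call too, at values from -0.77 to -0.64 and adjusted p of 0.0720, 0.0732, 0.0836, 0.0579, 0.0739 and 0.0576. Under each of these settings edgeR called 0 genes over the whole table in place of 1625. Every setting kept Fbxo31 lower with chemotherapy than in healthy muscle.

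**Figure D2:**
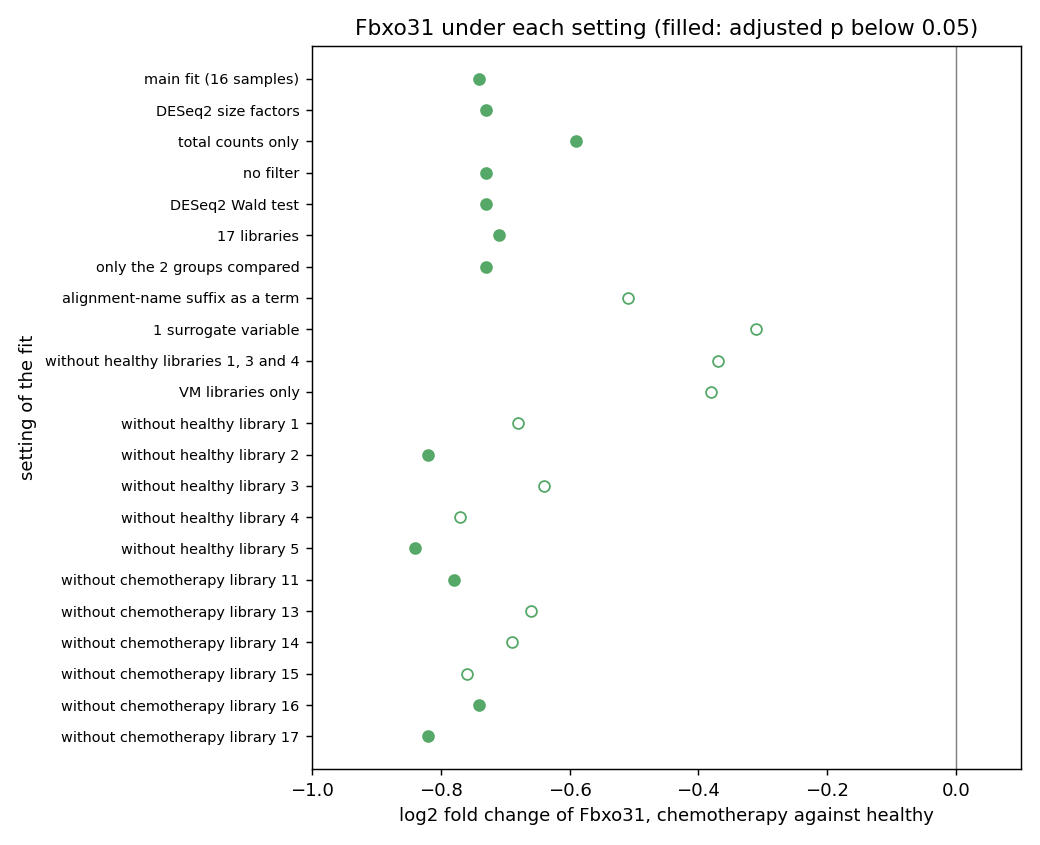
Log2 fold change of Fbxo31, chemotherapy over healthy (horizontal axis), under each setting of the fit that changes these 2 groups or the method (vertical axis), filled where the adjusted p was below 0.05. All points lie below 0, from -0.84 without healthy library 5 to -0.31 with 1 surrogate variable.

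Against healthy rats, 1 of 10 ligase genes was called lower with chemotherapy and 0 higher, where 6.41% of all 11856 genes tested were called lower and 7.30% higher. A share of 1 in 10 is near that background. DESeq2 called 3 of 10 there (Fbxo30 higher, Fbxo31 and Fbxo40 lower), beside 1404 genes higher and 1098 lower of the 19201 it fitted. Tumor-bearing rats against healthy rats gave 0 of 10 calls with edgeR, where 0.00% of all genes were called, and chemotherapy over tumor likewise gave 0 of 10, beside 0.00%. With DESeq2 also 0 of 10 were called in each of these comparisons, beside 18 genes higher and 23 lower of 19201 for tumor over healthy and 0 and 3 for chemotherapy over tumor. At an unadjusted p below 0.05 there were 4 of 10 for tumor over healthy, beside 18.0% of all genes, 4 of 10 for chemotherapy over healthy, beside 36.4%, and 1 of 10 for chemotherapy over tumor, beside 5.78%. In no comparison did the groups separate without overlap for any ligase gene, where 0.995% of all genes did so for tumor over healthy and 0.481% for chemotherapy over tumor. For chemotherapy over healthy, 2.02% of all genes did so as the higher and 1.97% as the lower group. The median log2 fold change of the 10 genes was -0.10, -0.14 and -0.01, and that of all genes 0.01, -0.02 and 0.00. The first and second comparison share the healthy samples, so their likeness is not an independent repeat.

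**Figure D3:**
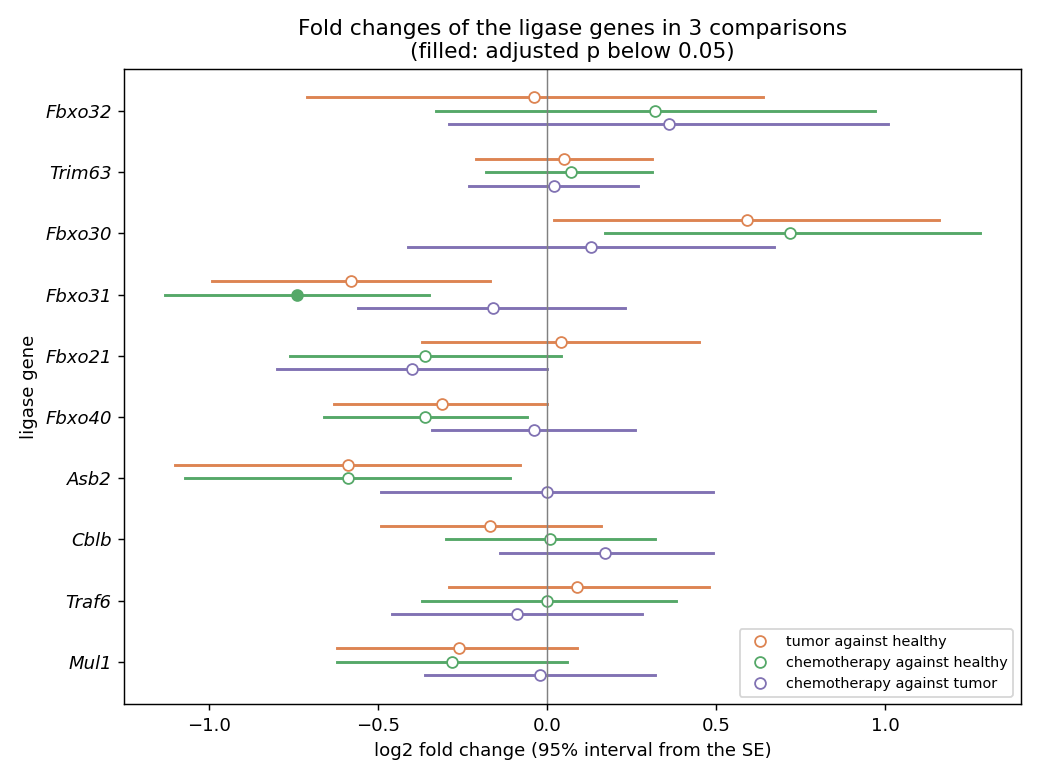
Log2 fold change of each ligase gene with its 95% interval (horizontal axis) in the 3 comparisons, filled where the adjusted p was below 0.05. Only Fbxo31 with chemotherapy over healthy, at -0.74, is filled, and the values for chemotherapy over tumor lie closest to 0 for Asb2, Trim63 and Mul1.

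Of the other F-box genes, Fbxo30 had the opposite sign to Fbxo31. Fbxo30, also named MUSA1, is held in check by BMP signaling and is switched on by denervation. It read 12.1, 16.5, 12.3, 6.28 and 19.8 CPM in the healthy libraries and 26.6, 25.1, 13, 16 and 19 CPM in the tumor libraries. With chemotherapy it ran from 15.6 to 29.9 CPM with a median of 21.5. The groups overlapped, although all tumor and all chemotherapy samples were above the healthy median, and healthy library 4 was again the lowest sample. The log2 fold change was 0.59 ± 0.26 for tumor over healthy (edgeR adjusted p = 0.260) and 0.72 ± 0.26 for chemotherapy over healthy (adjusted p = 0.0593), and neither was called. The latter passed with DESeq2 (0.73, adjusted p = 0.0411) and with scaling by total counts (0.85, adjusted p = 0.0434). It also passed without healthy library 2 (0.79, adjusted p = 0.0346), healthy library 5 (0.92, 0.0299) or chemotherapy library 11 (0.77, 0.0444), and was 0.25 without healthy libraries 1, 3 and 4 (adjusted p = 0.920).

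Fbxo40, a muscle-restricted F-box protein that directs the insulin receptor substrate Irs1 to degradation, read 339, 328, 303, 292 and 281 CPM in the healthy libraries. In the tumor libraries it read 212, 236, 296, 202 and 294 CPM, and with chemotherapy it ran from 193 to 289 CPM with a median of 252. Its healthy values were the tightest of the 10 genes, with a coefficient of variation of 7.90%. The log2 fold change was -0.31 ± 0.14 for tumor over healthy and -0.36 ± 0.14 for chemotherapy over healthy (edgeR adjusted p = 0.271 and 0.0751). All 11 samples from tumor-bearing rats lay below the healthy median. DESeq2 called the second value (-0.35, adjusted p = 0.0494), and it was -0.34 without healthy libraries 1, 3 and 4 (edgeR adjusted p = 0.899).

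Fbxo21, which forms the same kind of complex, averaged 9.87 ± 1.69 CPM (SD, n = 6) with chemotherapy, 13.1 ± 3.12 (n = 5) with a tumor alone and 12.8 ± 2.36 (n = 5) in healthy rats. It gave the smallest unadjusted p of the 10 genes for chemotherapy over tumor, with a log2 fold change of -0.40 ± 0.18 (unadjusted p = 0.0432, edgeR adjusted p = 0.778). In that comparison 5 of 6 chemotherapy samples lay below the tumor median.

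Asb2, the muscle ligase subunit that binds filamins and works on the Cul5 scaffold, read 1242, 664, 825, 791 and 554 CPM in the healthy libraries. In the tumor libraries it read 335, 549, 684, 663 and 478 CPM, and with chemotherapy it ran from 336 to 698 CPM with a median of 552. Healthy library 1 was the highest sample, and the groups overlapped. The log2 fold change was -0.59 ± 0.24 for tumor over healthy and -0.59 ± 0.22 for chemotherapy over healthy (edgeR adjusted p = 0.247 and 0.0710). Between chemotherapy and tumor it was -0.00 ± 0.22 (95% interval -0.49 to 0.49). Chemotherapy over healthy passed without healthy library 2 (-0.67, adjusted p = 0.0361) or healthy library 5 (-0.71, 0.0376), and was -0.17 without healthy libraries 1, 3 and 4 (0.945).

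The other RING ligases were not called in any comparison. Mul1, which sits in the outer mitochondrial membrane and tags mitofusin 2, had a mean of 72.4 ± 15.4 CPM (SD, n = 5) in healthy muscle, where tumor-bearing rats without chemotherapy had 60.6 ± 13.1 (n = 5) and those with it 59.8 ± 6.37 (n = 6). Its log2 fold change was -0.26 ± 0.16 for tumor and -0.28 ± 0.16 for chemotherapy over healthy (edgeR adjusted p = 0.377 and 0.204), and it turned to 0.04 and 0.03 without healthy libraries 1, 3 and 4. Cblb, which tags Irs1 in unloaded muscle, averaged 30.7 ± 3.85, 27.1 ± 5.03 and 30.6 ± 4.46 CPM in the same order of groups. Its 95% interval for chemotherapy over healthy was -0.30 to 0.32. Traf6, which builds lysine 63 chains in cytokine signaling, averaged 8.89 ± 0.990, 9.41 ± 1.04 and 8.97 ± 2.01 CPM. Its interval for the same comparison was -0.37 to 0.38. Neither interval is adjusted for the number of genes, so they do not give the smallest change that could have been called.

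Markers of some other cells moved with the contrast in which Fbxo31 was called. Summed over 3 of 3 smooth muscle markers, levels were 131 to 175 CPM in healthy and 56.6 to 114 with chemotherapy, without overlap. Over 3 of 4 endothelial markers they were 116 to 155 against 86.1 to 112 CPM, also without overlap. Over 5 of 5 fibroblast markers they were 4524 to 14211 against 2222 to 10789 CPM. The 6 myofiber markers summed to 121654 to 188396 CPM in healthy and 102373 to 127397 with chemotherapy, and slow-fiber markers to 4578 to 10544 against 4950 to 8341. Macrophage markers summed to 146 to 324 against 151 to 258 CPM and the 5 T cell markers in the table to 17.3 to 37.3 against 14.9 to 40.5. Erythroid markers summed to 423 to 1345 against 119 to 893 CPM (medians 821 and 405) and adipocyte markers to 3.78 to 22.8 against 10.8 to 179 CPM (medians 7.16 and 17.4), with no tested gene of either list called. Fast-fiber markers summed to 112490 to 164745 against 116194 to 140918 CPM and neural markers to 37.8 to 134 against 39.3 to 239. Acta2, Tagln, Tie1, Pdgfra, Col3a1, Acta1, Ckm and Des were each called lower in this contrast, where 6.41% of all genes were called lower. Without healthy libraries 1, 3 and 4, with the suffix as a term or with 1 surrogate variable, edgeR called no gene in it. Myh11, Cdh5, Kdr, Dcn, Lum and Col1a1 had the same sign and were not called. Of the other myofiber markers, Ryr1 was at -0.59, Mb at 0.45 and Neb at 0.78, none of them called. None of the markers in these lists was at 0 in all samples. In the order healthy, tumor and chemotherapy, median sums were 139, 182 and 90.5 CPM for smooth muscle and 135, 130 and 103 for endothelial markers. They were 7561, 4962 and 3435 CPM for fibroblast and 174238, 108467 and 107872 for myofiber markers. The part of these markers in the values of the ligases was not tested, and in bulk tissue fewer cells of a type and less RNA per cell cannot be told apart.

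Across the 16 samples the ligase genes did not rise and fall as one set. Log2 CPM of Fbxo31 went with that of Asb2 (Pearson r = 0.82, Spearman rho = 0.78, and r = 0.73 after the group means were removed) and of Mul1 (r = 0.69, rho = 0.60). Fbxo30 ran against Fbxo31 (r = -0.77, rho = -0.86) and against Asb2 (r = -0.75, rho = -0.88). After the group means were removed, r was -0.59 and -0.63 for these pairs and 0.61 for Fbxo31 with Mul1. Without healthy libraries 1, 3 and 4, with group means kept, r was 0.68 for Fbxo31 with Asb2 and 0.47 with Mul1. It was -0.77 for Fbxo30 with Fbxo31 and -0.79 with Asb2. Fbxo32 went with Fbxo30 at r = 0.75 (rho = 0.58), which became 0.43 without the 2 samples of most extreme Fbxo32. Fbxo32 and Trim63 were at r = 0.42 (rho = 0.22), which became 0.15 without healthy libraries 1, 3 and 4 and 0.09 without the 2 farthest samples. These are descriptions over samples that share scaling and depth, and 45 pairs were computed.

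**Figure D4:**
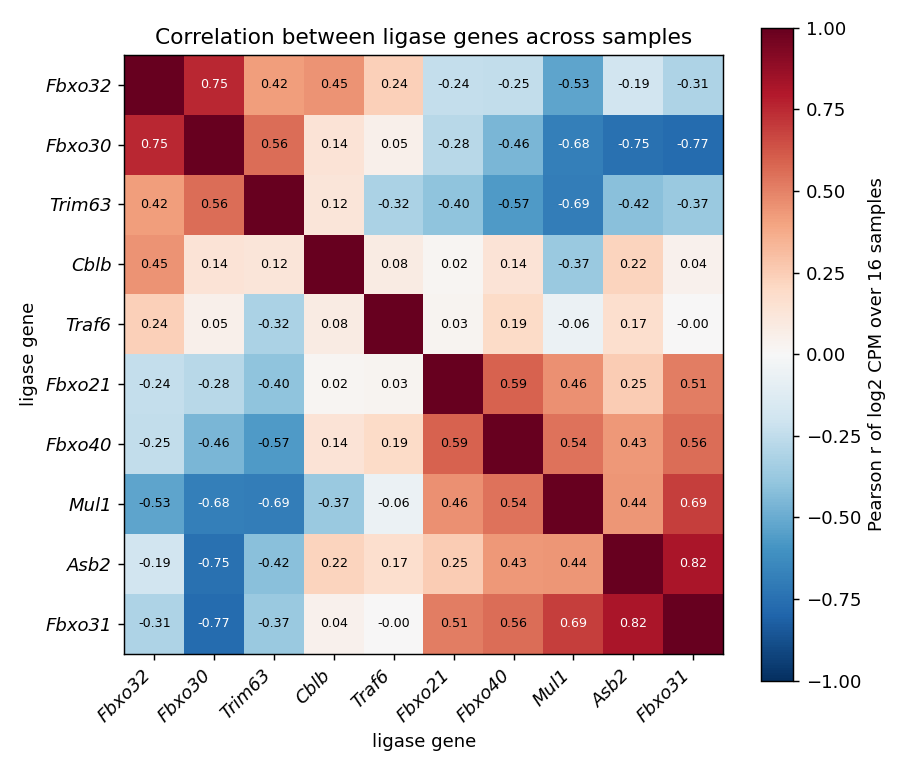
Pearson correlation of log2 CPM between each pair of ligase genes over 16 samples (both axes list the genes, color gives r). Fbxo32, Fbxo30 and Trim63 are positive with each other and negative with Fbxo31, Asb2 and Mul1. The negative values are weak for Fbxo32 with Asb2 (-0.19) and with Fbxo31 (-0.31). Fbxo31 and Asb2 are at 0.82 and Fbxo30 and Fbxo31 at -0.77.

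The genes most like each marker were sought among the 8834 genes that averaged 5 CPM or more. For Fbxo32 they were Rragc (r = 0.90), Rora (0.87) and Man1a2 (0.86) over 16 samples, and these values were 0.78, 0.74 and 0.65 without healthy library 4, where the same genes ranked 5, 15 and 50, so none of them was among the 3 most alike. For Trim63 they were Hdgf (r = 0.89), Golga7 (0.87) and Sumo2 (0.87), and 0.90, 0.83 and 0.82 without that library, at ranks 1, 2 and 4.

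Around the ligases, edgeR with all 16 samples called genes of the ubiquitin pathway in both directions with chemotherapy over healthy, and none in the other 2 comparisons. The counts of called genes stand beside the 7.30% of all genes called higher and 6.41% called lower. With 1 surrogate variable or without healthy libraries 1, 3 and 4, none of the counts kept a call. Leaving out those libraries takes away the low end of the first axis, so smaller medians without them are not an independent check. Of the 21 tested genes for ubiquitin and its activating (E1) and carrying (E2) enzymes, 4 rose, 2 fell and 15 did not pass (median log2 fold change 0.07, against -0.02 over all genes), and the median was -0.08 without healthy libraries 1, 3 and 4. Uba1, the main activating enzyme, fell from 210 ± 31.9 CPM (SD, n = 5) to 140 ± 10.1 (n = 6), with a log2 fold change of -0.59 ± 0.15 (edgeR adjusted p = 0.0290). Ube2o, an E2 that can act as a ligase as well, was at -0.74 ± 0.17, and the E2 genes Ube2e1 and Ube2k rose by 0.57 ± 0.14 and 0.80 ± 0.22. For each of these 4 genes the healthy and chemotherapy samples did not overlap, beside 2.02% of all genes as the higher and 1.97% as the lower group. They were picked by smallest p, which favors such a separation. Ube2n of this list did not overlap either and was not called (edgeR adjusted p = 0.0893).

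Of 18 genes for cullin complexes, in which the F-box proteins and Asb2 work, 4 rose, 2 fell and 12 did not pass. Their median of 0.50 became 0.14 without healthy libraries 1, 3 and 4 and -0.01 with 1 surrogate variable. Cul5, the scaffold of Asb2, rose from 61.8 ± 32.6 CPM to 132 ± 33.1 (log2 fold change 1.10 ± 0.31, edgeR adjusted p = 0.0337), and its adaptor Eloc by 0.84 ± 0.24. Nedd8, the ubiquitin-like protein that activates cullins, rose by 0.62 ± 0.18, while Cand2, an exchange factor of cullin complexes, was at -0.66 ± 0.15 (178 ± 28.3 to 113 ± 17 CPM). Cul5 and Asb2 therefore had opposite signs, and the difference between them was not tested.

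Of 35 other ubiquitin ligases of muscle, 4 rose, 4 fell and 27 did not pass (median 0.07, or -0.01 without healthy libraries 1, 3 and 4). Rnf123 was at -0.54 ± 0.13, Ubr4 at -0.64 ± 0.17 and Trim54 at -0.57 ± 0.15, and Fbxo3 rose by 0.74 ± 0.21. Trim54 (MuRF3) is a close relative of Trim63. Of 22 deubiquitinases, which take ubiquitin off again, 2 rose and 1 fell: Uchl5, bound to the proteasome, by 1.41 ± 0.38, Cyld, which cuts lysine 63 chains, by 0.82 ± 0.24, and Usp10 at -0.48 ± 0.14. Their median of 0.42 became 0.06 without healthy libraries 1, 3 and 4 and -0.02 with 1 surrogate variable.

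Of 31 regulators upstream of the ligases, 1 rose and 2 fell, shares below those of all genes for the higher calls and near them for the lower. Their median of -0.21 became -0.06 without healthy libraries 1, 3 and 4 and 0.01 with 1 surrogate variable. Foxo6 went from 5.73 ± 2.77 to 2.22 ± 0.952 CPM (-1.38 ± 0.32, edgeR adjusted p = 0.0271), the kinase Akt1 was at -0.45 ± 0.14, and Chuk, a kinase of the NF-kappaB pathway, rose by 0.59 ± 0.20. Of 24 reported substrates, 5 fell and none rose. Their median of -0.38 became -0.19 without healthy libraries 1, 3 and 4 and -0.13 with 1 surrogate variable. Flnc, the muscle filamin, went from 2615 ± 453 to 1504 ± 235 CPM (-0.80 ± 0.17, edgeR adjusted p = 0.0261), Flna was at -0.74 ± 0.18, Des at -1.09 ± 0.26 and Acta1 at -0.86 ± 0.23. Flnc also had the smallest p of its list for chemotherapy over tumor (-0.78 ± 0.17, edgeR adjusted p = 0.415). Its samples did not overlap there, beside 0.481% of all genes in either direction.

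**Figure D5:**
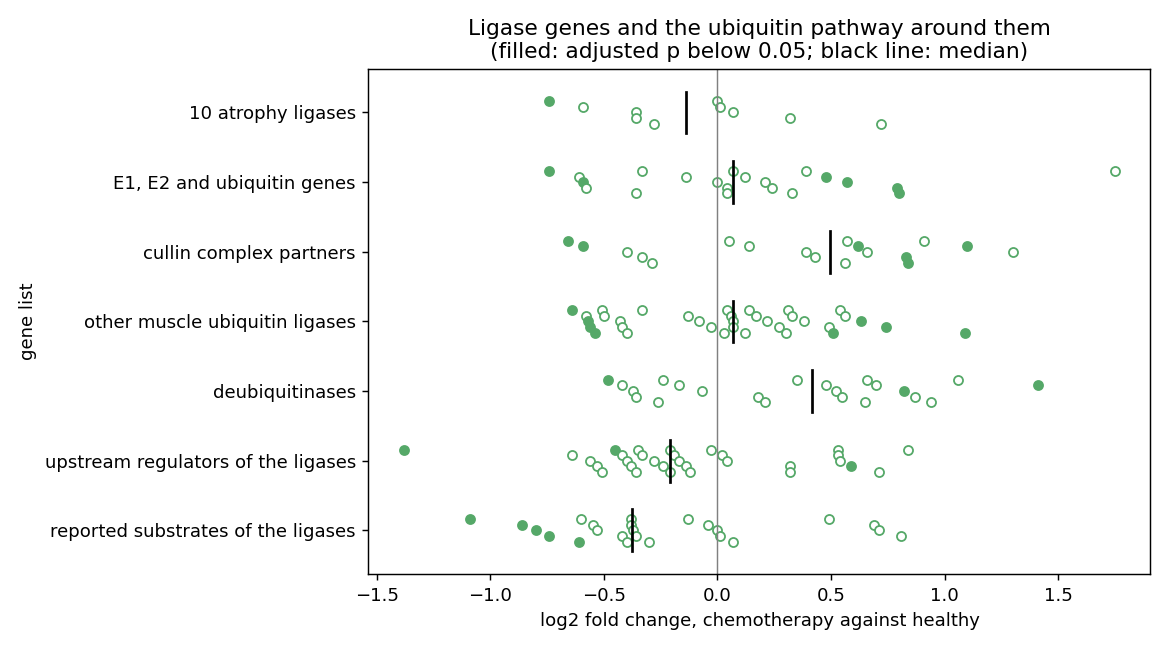
Log2 fold change with chemotherapy over healthy (horizontal axis) of the 10 ligase genes and of 6 lists of ubiquitin pathway genes (vertical axis), with the median as a black line and called genes filled. Called genes lie on both sides of 0 in 5 of the 6 lists, and the 5 called substrates are all below 0.

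In total 15 entries of these lists were called higher and 16 lower with chemotherapy over healthy, and both counts were 0 without healthy libraries 1, 3 and 4, with the suffix as a term and with 1 surrogate variable. They were 0 as well without healthy library 1, 3 or 4 or chemotherapy library 13, 14 or 15, and 42 and 37 without healthy library 2. Without chemotherapy library 16 they were 0 and 9, and scaled by total counts 35 and 11. For tumor over healthy the lists held 5 calls higher and 4 lower without healthy library 2, and for chemotherapy over tumor DESeq2 called 1 substrate lower and the fit with 1 surrogate variable 1 deubiquitinase lower. For tumor over healthy with all samples the smallest p of each list but the first belonged to Rbx1 (log2 fold change -0.39), Trim55 (0.51), Atxn3 (0.77), Foxo4 (0.71) and Acta1 (-0.80), with edgeR adjusted p from 0.211 to 0.247. Acta1 has near-identical relatives elsewhere in the genome, so its counts may be uncertain, here and where it was called above. This was not tested. For chemotherapy over tumor the smallest p of the 6 lists belonged to Ube2n (0.27), Cand2 (-0.43), Ubr4 (-0.46), Usp28 (-0.41), Foxo6 (-0.93) and Flnc.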

How the data were processed

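Libraries were stranded and made from total RNA of gastrocnemius after removal of ribosomal RNA, per the labels' protocols. The authors deposited raw counts of reads per gene. Bowtie2, TopHat2 2.0.10, FastQC 0.11.4, Trim Galore 0.4.1 and CASAVA 1.9 appear in the submitters' processing notes. The build, the annotation and the program that counted are not given in the sources at hand. Of 32883 entries, 388 without a name (0.102% to 0.373% of counts) were left out. Chi-square over degrees of freedom was 2.04 between libraries 11 and 12, against 5.47 for the next closest pair within a group. Sampling noise alone gives about 1, so the pair differed somewhat more than that. Against library 17, otherwise the closest to each, library 11 was at 19.5 and library 12 at 20.1. The pair may be 1 sample prepared or sequenced again, or separate samples. It was summed and counted as 1 sample as the cautious choice, and keeping 17 libraries left the same 1 ligase gene called.

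All 16 samples entered 1 edgeR 4.0.16 quasi-likelihood fit in R 4.3.3 (TMM, filterByExpr with a minimum count of 10, residual degrees of freedom 13). Benjamini-Hochberg adjustment ran over 11856 genes, and called means an adjusted p below 0.05. SE is the log2 fold change over the square root of F, with intervals from the t distribution on 13 degrees of freedom. Correlations used log2 CPM with a prior count of 2, and the ratio added 0.5 to each count. Alternatives were other scalings, no filter, DESeq2 1.42.0, 17 libraries, 2-group fits, the suffix as a term, 1 surrogate variable (sva 3.50.0) and samples left out. The fit was also run on simulated counts with known changes. These had the same spread for every gene and no suffix effect or outlying library, so they do not bear on the lost calls. All 10 ligases were named, and from each pathway list and comparison up to 4 called genes of smallest p, or the gene of smallest p where none was called. The gene of smallest p in 1 list is not reported here. Members and lists were chosen with earlier results of these data known.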

Additional observations from a re-analysis of the deposited data

Results flagged for a closer look

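Fbxo32 in healthy library 4 was at 72.1 CPM, with the next lowest of the 5 healthy samples at 209 CPM. The gap was 0.764 of the group's range on the log2 scale, above the critical value for 5 samples. It was the only far sample found in 33 groups of values checked, where about 1 in 20 groups is marked by chance. Healthy library 4 was the deepest library, at 15777909 counts, and was the lowest healthy sample for Trim63 (184 CPM), Fbxo30 (6.28 CPM) and Cblb (26.7 CPM) too. For Mul1 it was the highest healthy sample (88.8 CPM). For Fbxo31, Fbxo21, Fbxo40, Asb2 and Traf6 it was neither the lowest nor the highest. Whether these values share a source was not tested.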

How the results depend on the processing

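Over all alternatives, 68 of 620 member values changed sign, the largest of size 0.37, and edgeR or DESeq2 gave none of them an adjusted p below 0.05. The cause was not tested. For chemotherapy over healthy, 1 ligase was called, against 2 (Fbxo30, Fbxo31) with total counts, 3 (Fbxo30, Fbxo31, Fbxo40) with DESeq2, and 0 with the suffix, with 1 surrogate variable, without healthy libraries 1, 3 and 4 and in VM libraries only, the last chosen after seeing the data. Leaving out 1 library each gave 0 to 3. The other comparisons gave 0 throughout. Over all genes, chemotherapy over healthy gave 865 calls higher and 760 lower, against 1669 and 348 with total counts, which moved the median of all genes from -0.02 to 0.12. DESeq2 called 1404 and 1098, and no filter left 474 and 410. Calls were 0 with the suffix (993 genes at an unadjusted p below 0.05), the surrogate variable (711), without healthy libraries 1, 3 and 4 (585) and in VM libraries (1050). They were 2024 and 1775 without healthy library 2 and 261 and 268 without chemotherapy library 16. For tumor over healthy, edgeR called 0, DESeq2 18 and 23, and edgeR without healthy library 2 called 245 and 259. Sign changes for tumor over healthy were Fbxo32 0.11 (total counts), Trim63 -0.05 (suffix), -0.07 (without healthy libraries 1, 3 and 4, and likewise the surrogate variable) and -0.04 (VM), Traf6 -0.04 (suffix), and Mul1 0.02 (surrogate variable) and 0.04 (without those 3). For chemotherapy over healthy they were Traf6 -0.05 (17 libraries), -0.10 (suffix), -0.08 (surrogate variable) and -0.04 (without those 3), Trim63 -0.01, -0.11 and -0.05 under the same last 3 settings, Fbxo32 -0.37, Cblb -0.14 and Mul1 0.18 (surrogate variable), and Cblb -0.06 and Mul1 0.03 (without those 3). For chemotherapy over tumor they were Asb2 0.01 (DESeq2 and its size factors), 0.02 (total counts and VM), 0.00 (2 groups and without those 3) and 0.12 (surrogate variable), Mul1 0.01 (total counts), 0.02 (17 libraries) and 0.16 (surrogate variable), and Trim63 -0.04, Fbxo30 -0.10 and Fbxo40 0.02 (surrogate variable). With 1 library left out, ranges that crossed 0 were, for tumor over healthy, Fbxo32 -0.27 to 0.07, Trim63 -0.01 to 0.09, Fbxo21 -0.09 to 0.14 and the ratio -0.32 to 0.15. For chemotherapy over healthy they were Cblb -0.06 to 0.06 and Traf6 -0.08 to 0.08, and for chemotherapy over tumor Asb2 -0.13 to 0.11, Mul1 -0.09 to 0.07, Fbxo40 -0.11 to 0.02 and Trim63 -0.03 to 0.05. The ratio for chemotherapy over healthy ran from 0.04 to 0.51. Depth limits Fbxo21 and Traf6, at 25 and 26 counts in their lowest samples.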
